A study of Mus musculus with 12 samples.

Results

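The difference between *Rack7*-cKO and WT astrocyte cultures was examined as the mean of the differences within 3 time points, P1, P6 and P8, and the genes whose difference kept its sign at all 3 were followed. All 12 RNA-seq libraries of the experiment entered this comparison, 6 labelled cKO and 6 labelled WT, with 2 of each genotype at every time point. The cKO mice carried hGFAP-Cre and 2 floxed *Rack7* alleles (hGFAP-Cre::*Rack7* fl/fl), and the WT mice carried the same Cre with unfloxed alleles (hGFAP-Cre::*Rack7* +/+), so that both genotypes carried the transgene. This Cre, driven by a human GFAP promoter, is active from embryonic life in the neural stem cells of the pallium, and cells of other origin in a brain culture keep the gene. Brains taken on postnatal day 1, 6 or 8 were stripped of meninges and grown in astrocyte medium on Matrigel, and loosely attached microglia and oligodendrocytes were then shaken off. By the paper's methods, the cells grew for more than a week before the shaking and for some days after it. A time point is thus the age of the brain at dissection and not that of the cells at harvest. The libraries of a group are labelled as biological repeats, but the labels and methods do not say whether they came from different animals, and the p-values measure the spread between libraries of a group, which may be technical. With 2 libraries in each group, a difference is given as the level in the libraries, in CPM (counts scaled to library size), and as a log2 fold change of cKO against WT. The standard error (SE) given with it was derived from the test, as the absolute log2 fold change divided by the square root of the F statistic.

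RACK7, encoded by *Zmynd8*, is a chromatin reader with bromo, PHD and PWWP domains that recognizes modified histone tails and works with co-repressor complexes. Polycomb repressive complex 2 (PRC2) places H3K27 trimethylation, a mark that keeps developmental genes such as patterning factors and signalling ligands silent outside their own lineage. Astrocytes arise from radial glia, lose stem cell features as they mature after birth, and gain the channels, transporters and secreted factors through which they serve neurons and synapses.

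*Zmynd8* (ENSMUSG00000039671, chromosome 2 from 165784152 to 165899016 on the minus strand of GRCm38) was counted over the whole gene. It read 136 and 136 CPM in the P1 WT libraries, 114 and 116 CPM at P6 and 100 and 104 CPM at P8. The libraries labelled cKO read 213 and 216 CPM at P1, 242 and 230 CPM at P6 and 160 and 171 CPM at P8. All 6 cKO libraries therefore lay above all 6 WT libraries, and the mean log2 difference was 0.80 with an SE of 0.027 (adjusted p = 6.49e-08). This is opposite to a loss of transcript, but a level summed over the gene cannot show whether the floxed exons are missing. It therefore neither checks the deletion nor shows a label to be wrong. As its own checks, the paper gives PCR of the floxed locus in the mice and an immunoblot of RACK7 in WT and cKO primary astrocytes. The genotypes are named below as the libraries are labelled.

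The libraries held 54413504 to 89183250 counts each. *Xist*, which is transcribed from the inactive X chromosome, read 825 to 1440 CPM in the 4 P6 libraries and at most 0.915 CPM at P1 and P8, whereas the Y-linked *Ddx3y* read 94.7 to 127 CPM at P1, 125 to 174 CPM at P8 and at most 0.0622 CPM at P6. Both genotypes showed the same pattern within a time point, so that these genes did not separate cKO from WT, but the sex of the cultures and the time point cannot be told apart.

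Markers of several cell types were present beside those of astrocytes, and some moved with genotype. The summed level of 13 fibroblast and meningeal markers was higher in cKO at P1, with 2930 to 2970 CPM against 574 to 590 CPM, and lower at both later time points, with 2910 to 3100 against 8780 to 8820 CPM at P6 and 9080 to 9300 against 30400 to 32600 CPM at P8. The summed level of 6 endothelial markers moved the same way, with 52.7 to 56.2 against 24.9 to 26.9 CPM at P1, 61.2 to 67.1 against 124 to 127 CPM at P6 and 44.9 to 46 against 150 to 164 CPM at P8. *Cdh5* alone gave 125 and 141 CPM of the P8 WT sums and 10.1 and 9.59 CPM of the P8 cKO sums. Of the 6 markers, 2 were higher in cKO at every time point. The summed level of 9 astrocyte markers was 2110 to 2150 CPM in cKO and 2220 to 2250 CPM in WT at P1, 1400 to 1540 against 1520 to 1700 CPM at P6, and 687 to 702 against 1570 to 1950 CPM at P8. The 15 microglial markers read 5020 to 5070 CPM in cKO and 6060 to 6100 CPM in WT at P1, 5100 to 5150 against 4580 to 4730 CPM at P6, and 8670 to 8800 against 4790 to 4860 CPM at P8, so that microglial RNA was present in every library. For 4 of the 9 lists, those of astrocytes, neurons, mural cells and neural stem cells, the group ranges overlapped or kept the same order of genotypes at every time point. In bulk cultures, fewer cells of a type and less RNA per cell cannot be told apart, and the part of these shifts in the gene differences below was not tested.

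**Figure D1:**
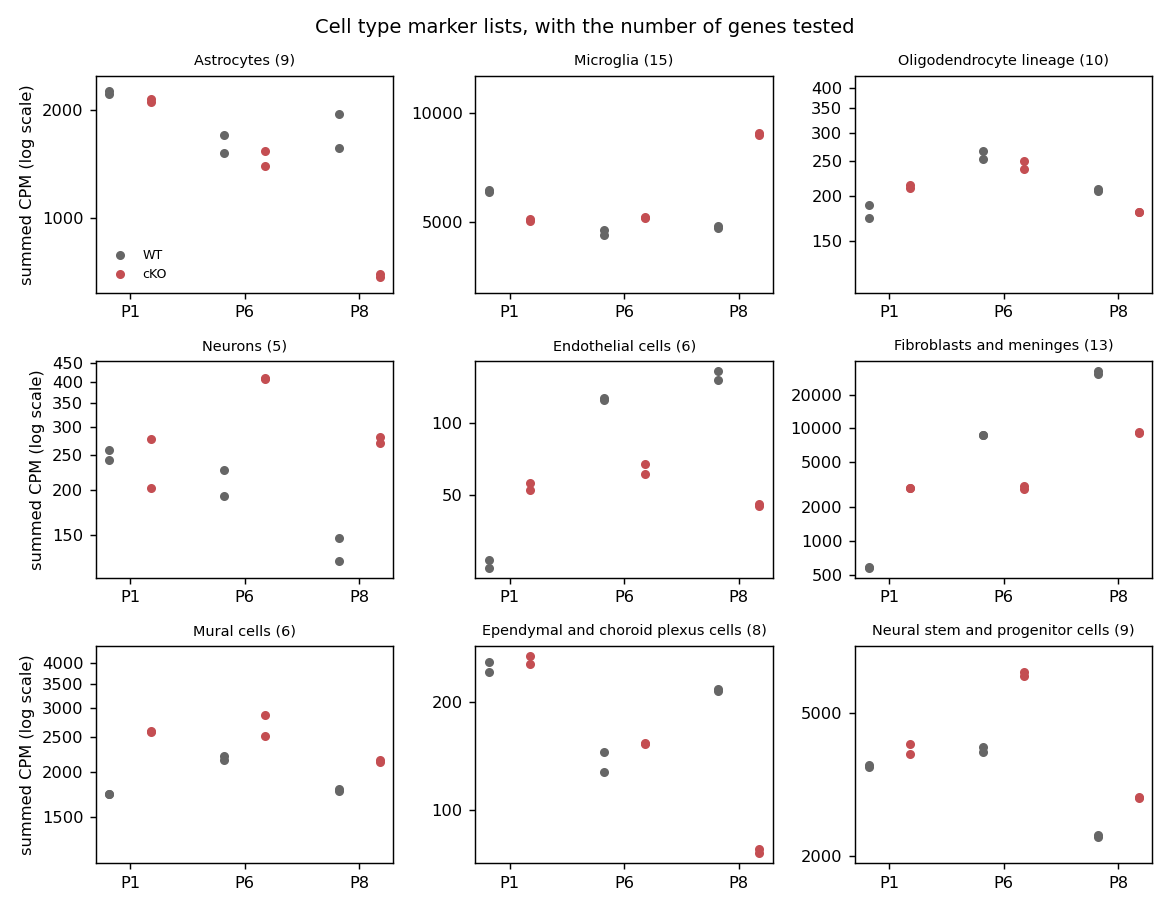
Summed level of 9 cell type marker lists (CPM, log scale) in each library at P1, P6 and P8, with WT in grey and cKO in red and the number of markers tested in brackets. The fibroblast and endothelial sums of cKO lie above WT at P1 and below WT at P6 and P8, and the astrocyte sum of the P8 cKO libraries, 687 to 702 CPM, is the lowest among the astrocyte sums.

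The genes that differed in one direction at every time point were mostly higher in cKO. Among them were the muscle calcium store gene *Casq1* (15-fold), the paternally expressed gene *Mest* (6.38-fold) and 6 of 14 Wnt ligand genes. The neurotrophin receptor gene *Ngfr* (4.43-fold) and 14 of 37 motile cilia genes were lower throughout. Of 17938 genes tested, 1160 were higher in cKO on the mean of the 3 differences, with an adjusted p (Benjamini-Hochberg) below 0.05 and a change of 1.5-fold or more, which is 6.47% of the genes tested. By the same rule 781 genes, or 4.35%, were lower. The difference kept its sign at P1, P6 and P8 in 945 of the genes called higher (81.5%) and in 418 of those called lower (53.5%), so that 5.27% of all genes tested were higher and 2.33% lower at every time point. These 945 and 418 genes are the genes of constant sign described below. Whatever the test, the sign was the same at all 3 time points in 17.1% of all genes for higher and 15% for lower. The genes that lost their sign did so mostly at P1. Of the 363 genes called lower without a constant sign, 332 were higher in cKO or without counts at P1, 124 of them past the adjusted threshold there, and of the 215 called higher without a constant sign, 136 were lower or without counts at P1, with 8 past the threshold.

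**Figure D2:**
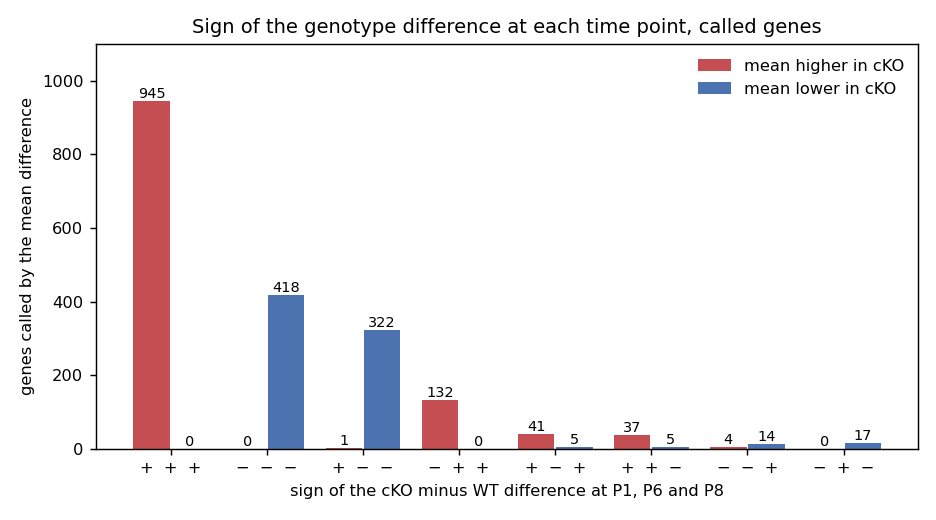
Number of genes called by the mean difference for each combination of signs at P1, P6 and P8, with plus for higher in cKO, red bars for a higher mean and blue bars for a lower mean. Beside the constant patterns of 945 and 418 genes, the commonest is higher at P1 and lower at P6 and P8, with 322 genes of lower mean.

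The collagen gene *Col3a1*, a fibroblast marker, is an example of a changing sign. The gene read 33.8 and 30.8 CPM in P1 WT and 369 and 370 CPM in P1 cKO, 1210 and 1210 against 22.8 and 25.9 CPM at P6, and 4920 and 4970 against 1120 and 1170 CPM at P8. Its log2 differences were 3.52, -5.63 and -2.11, with a mean of -1.41, and without P6 the mean turned to 0.69. *Cdh5*, an endothelial cadherin, had differences of 3.05, -6.03 and -3.76, and its mean of -2.25 was -0.36, under the fold threshold, without P6. *Col1a1* had log2 differences of 2.16, -0.82 and -1.30, which left a mean of 0.01, with -1.06 when P1 was left out and 0.67 when P8 was. None of the 13 fibroblast markers was called with a constant sign, although 6 were called lower on the mean.

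Among the genes of constant sign, the median difference was smallest at P1. The 945 higher genes had median log2 differences of 0.74, 1.46 and 1.49 at P1, P6 and P8, and the 418 lower genes -0.54, -0.90 and -1.36. With groups without counts set at a floor of 3 counts, which touched 106 of the higher and 23 of the lower genes, these medians were 0.74, 1.44 and 1.48, and -0.52, -0.90 and -1.36. The smallest of a gene's 3 differences was at P1 for 601 of the higher genes (63.6%) and 255 of the lower (61%). A smallest difference of at least 2-fold was found for 262 higher and 45 lower genes, whereas 75 higher and 39 lower genes had a time point with a difference under 0.1 on the log2 scale, where the sign has little behind it. The size of the difference varied between time points at an adjusted p below 0.05 (edgeR, interaction of genotype and time point) in 440 of the higher genes (46.6%) and 184 of the lower (44%), against 30.8% of all genes tested.

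Fewer genes were called within P1 than within P6 or P8. At P1, 4.01% of all genes were higher and 0.892% lower, against 7.16% and 6.38% at P6 and 11.2% and 8.37% at P8. The 3 within-time comparisons share no library, but they were tested in 1 fit with a spread per gene estimated over all 12 libraries. Their calls are therefore not independent. Of the 719 genes higher at P1, 311 (43.3%) were higher at both P6 and P8, where 30.5% of all genes were, and 198 (27.5%) were called higher at both, against 3.8% of all genes. Of the 160 genes lower at P1, 76 (47.5%) were lower at both later time points, against 29.5% of all genes, and 36 (22.5%) were called lower at both, against 3.16%. The 198 and 36 genes called at every time point were 21% and 8.61% of the genes of constant sign. Of 4694 genes called at 1 time point or more, 2895 (61.7%) were not called by the mean, and 142 genes were called by the mean and at no single time point.

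The order of the libraries described the same genes without a fit. Both cKO libraries lay above both WT libraries at every time point in 672 of the 945 higher genes, against 6.76% of all genes tested, and below them in 249 of the 418 lower genes, against 4% of all. All 6 cKO libraries lay above all 6 WT libraries in 189 of the higher genes and below them in 43 of the lower, where 1.39% and 0.574% of all genes tested did. These counts use the same libraries as the calls and are a description. Long intergenic non-coding RNAs made up 93 (9.84%) of the higher genes and 18 (4.31%) of the lower, against 3.13% of the genes tested. The median level over the 12 libraries was 4.5 CPM for the higher and 4.36 CPM for the lower genes, against 16.2 CPM for all genes tested. Near *Zmynd8*, 6 of 205 genes tested within 10 Mb (2.93%) were higher and 2 (0.976%) lower with a constant sign, against 5.27% and 2.33% of all genes.

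The unit of replication limits these counts. When both libraries of a group were added together, so that the 3 time points were the replicates, no gene passed an adjusted p below 0.05 in edgeR with 2 residual degrees of freedom (lowest adjusted p = 0.116), while 768 genes were higher and 329 lower at an unadjusted p below 0.05 and 1.5-fold, and DESeq2 on the same sums called 485 higher and 157 lower. A single genotype term over the 12 libraries, which counts differences between time points as error, called 752 higher and 356 lower, and the mean called 1326 lower genes without P1 and 449 without P8.

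Genes were ranked by the smallest of their 3 differences, among those of constant sign that averaged at least 1 CPM and had both cKO libraries on 1 side of both WT libraries at every time point. The 10 leading genes higher in cKO were *Adgrl4*, *Casq1*, *Gm13134*, *Bcas1*, *Cxcl15*, *Cpa4*, *A730020M07Rik*, *Gm830*, *Got1l1* and *Foxa2*. Where levels are given as one pair against another, the WT libraries come first and the cKO libraries second. *Casq1* (chromosome 1, 172209894 to 172219868, minus strand) encodes calsequestrin, the calcium store protein of skeletal muscle reticulum. It read 28.5 and 31.8 CPM in P1 WT and 426 and 410 CPM in P1 cKO, 40.1 and 44.6 against 771 and 696 CPM at P6, and 8.14 and 8.93 against 122 and 117 CPM at P8. The lowest cKO library thus lay above the highest WT library, and the mean difference was 15-fold (log2 3.90, SE 0.051, adjusted p = 4.57e-10). The difference was 3.79, 4.11 and 3.81 on the log2 scale at P1, P6 and P8, and the interaction test was not passed (adjusted p = 0.0817). Exons of *Casq1* overlap *Gm17224*, and since the sources used here give no strand setting for the counting, reads of the pair cannot be told apart. The same holds for *Bcas1* with *Bcas1os1* and *Bcas1os2*, *Gm830* with *Gm12707*, *Pcdhb21* with *Pcdhb22*, *Glt8d2* with *Tdg*, *Gli1* with *Arhgap9*, *Wnt7b* with *AU022754*, *Tnc* with *8030451A03Rik* and *Mest* with *Copg2*. Exons of *Spp1*, *Ccnd1*, *Kctd12*, *Scpep1*, *Sned1*, *Fgf10*, *Gas1*, *Dhh*, *Pax8*, *Col9a3*, *Col3a1*, *Dnah6*, *Bsn*, *Syt4*, *Pcgf5*, *Mmp12* and the gamma protocadherins also overlap another annotated gene.

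*Adgrl4* (chromosome 3, 151437887 to 151545086, plus strand), an adhesion G protein-coupled receptor known from vascular endothelium, had the largest mean difference of those of the 10 genes with counts in every group, 48-fold (log2 5.58, SE 0.18, adjusted p = 4.74e-08). It read 0.117 and 0.418 CPM in P1 WT and 5.32 and 6.11 CPM in P1 cKO, 0.915 and 0.964 against 82.8 and 82.3 CPM at P6, and 0.572 and 0.748 against 42.5 and 41.4 CPM at P8. The WT libraries stayed under 1 CPM throughout, and the summed endothelial markers were lower in cKO at P6 and P8, where *Adgrl4* was highest. Of those 6 markers, 2 were called higher with a constant sign and 2 lower without one. *Cdh5*, among the latter, made up most of the P8 WT sum. *Bcas1*, known from newly myelinating oligodendrocytes, lay between 0.269 and 0.651 CPM in the 6 WT libraries and between 5.05 and 8.27 CPM in the 6 cKO libraries, a mean difference of 14.6-fold. The 10 summed oligodendrocyte lineage markers, *Bcas1* included, were 210 to 214 CPM in cKO and 174 to 189 CPM in WT at P1 but 180 against 207 to 209 CPM at P8.

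*Foxa2*, a forkhead factor of the floor plate and endoderm, lay between 0.101 and 1.66 CPM in WT and between 1.53 and 11.4 CPM in cKO, and the groups overlapped over time points but not within one, with the highest level at P6 in both genotypes. *Cpa4*, a carboxypeptidase, lay between 0.0673 and 1.26 CPM in WT and 4.27 and 15.4 CPM in cKO, and *Got1l1*, a relative of aspartate aminotransferase, between 0.135 and 1.24 against 4.88 and 14.2 CPM. *Cxcl15*, a chemokine, had no count in either P1 WT library and 1.11 and 1.58 CPM in P1 cKO, which makes it at least 63.1-fold higher there when the WT group is set at a floor of 3 counts in all. At P8 it read 0.235 and 0.0554 CPM in WT and 14 and 13 CPM in cKO. *Gm830*, without counts in P8 WT, was at least 25.4-fold higher there. For the unnamed transcripts *Gm13134* and *A730020M07Rik*, the mean differences were 21.4-fold and 14.2-fold. In 9 of the 10 genes, all but *Foxa2*, every cKO library lay above every WT library, against 1.39% of all genes tested. The rule that chose these genes used the same libraries and favours this order, so that the count is a description only.

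**Figure D3:**
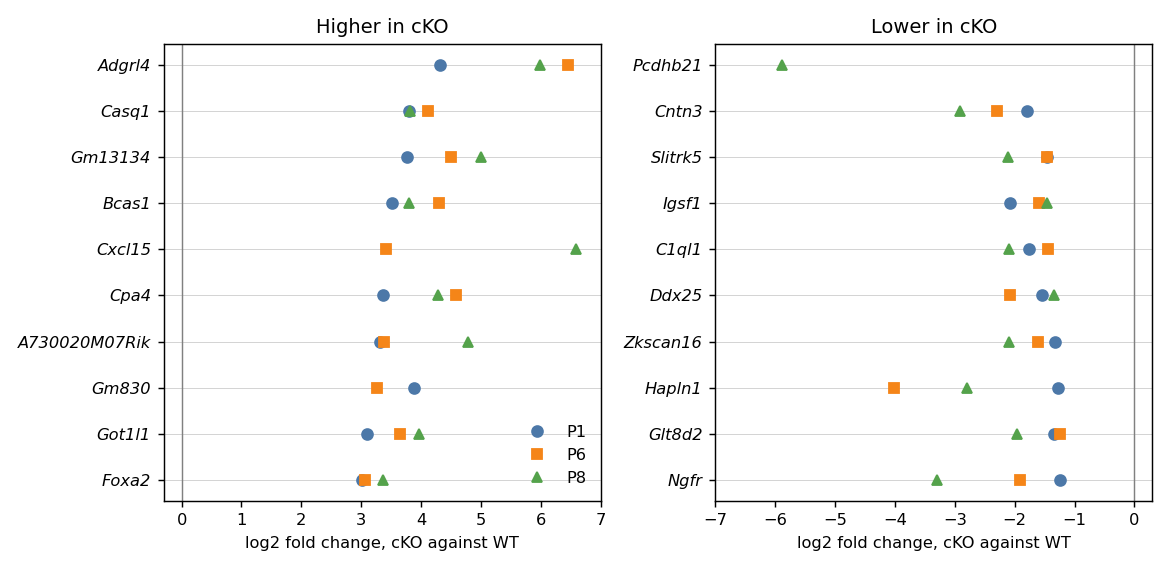
Log2 fold change of cKO against WT at P1 (circles), P6 (squares) and P8 (triangles) for the 10 genes higher and the 10 lower in cKO with the largest smallest difference; time points at which a group had no counts are left out (*Cxcl15* P1, *Gm830* P8, *Pcdhb21* P1 and P6). The points of *Casq1* lie close together, 3.79 to 4.11, while those of *Ngfr* spread from -1.24 at P1 to -3.29 at P8.

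The 10 genes lower in cKO by the same rule were *Pcdhb21*, *Cntn3*, *Slitrk5*, *Igsf1*, *C1ql1*, *Ddx25*, *Zkscan16*, *Hapln1*, *Glt8d2* and *Ngfr*, several of which encode adhesion or synaptic proteins. *Pcdhb21*, a clustered protocadherin that gives cells a surface identity, read 0.62 and 0.639 CPM in P1 WT, 2.26 and 2.98 CPM in P6 WT and 8.83 and 8.87 CPM in P8 WT. In cKO it had no count at P1 and P6, which is at least 24.3-fold and 113-fold lower, and 0 and 0.285 CPM at P8. *Ngfr*, the p75 neurotrophin receptor, read 8.6 and 7.07 CPM in P1 WT and 3.28 and 3.35 CPM in P1 cKO, 14.3 and 13.7 against 3.5 and 3.91 CPM at P6, and 19.7 and 19.7 against 2.47 and 1.57 CPM at P8. The WT libraries were highest and the cKO libraries lowest at P8, and the difference varied between time points (log2 -1.24, -1.91 and -3.29, interaction adjusted p = 0.00105).

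*Igsf1*, an immunoglobulin superfamily membrane protein gene on the X chromosome, lay between 5.52 and 7.58 CPM in WT and between 1.35 and 2.61 CPM in cKO, a mean 3.27-fold difference. *C1ql1*, a secreted synapse organizer, lay between 4.43 and 6.12 CPM in WT and 0.975 and 1.95 CPM in cKO. These 2 genes and *Ddx25*, an RNA helicase of germ cells (2.89 to 6.1 against 0.467 to 2.34 CPM), had no overlap between the 6 and 6 libraries, as had *Pcdhb21*, *Hapln1* and *Ngfr*. Of all genes tested, 0.574% lay so, and the rule that chose these genes favours it. The contactin *Cntn3* was 5.05-fold lower, the zinc finger gene *Zkscan16* 3.18-fold and *Glt8d2* 2.87-fold, with groups that overlapped over time points. *Slitrk5*, which encodes a synaptic membrane protein, read 51.9 and 51.7 CPM in P8 WT and 12.1 and 12 CPM in P8 cKO, but its P1 cKO libraries differed widely, with 1.92 and 0.298 CPM, and without P8 its mean of -1.46 did not pass the test (adjusted p = 0.0513). *Hapln1*, the link protein of hyaluronan and proteoglycans, likewise lost its call without P6 (log2 -2.05, adjusted p = 0.104).

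*Spp1* (osteopontin), the intermediate filament genes *Vim* and *Nes*, the matrix gene *Tnc* (tenascin-C) and *Ccnd1* (cyclin D1) were the 5 genes of highest CPM, which grows with transcript length, among those higher in cKO. *Tnc* read 1130 and 1130 CPM in P1 WT and 2150 and 2150 CPM in P1 cKO, 1030 and 936 against 3970 and 3970 CPM at P6, and 514 and 538 against 2150 and 2180 CPM at P8, so that all cKO libraries lay above all WT libraries (log2 1.66, SE 0.025, adjusted p = 9.78e-10). *Nes*, a marker of neural stem cells, read 864 and 856 against 1030 and 997 CPM at P1, 839 and 890 against 2040 and 2020 CPM at P6 and 152 and 142 against 494 and 504 CPM at P8. Its level was lower at P8 than at P6 in both genotypes, and the difference was 0.24, 1.23 and 1.76 on the log2 scale. *Spp1*, *Vim* and *Ccnd1* were near equal at P1, with log2 differences of 0.09, 0.18 and 0.10. Without P8 the mean differences of these 3 genes, 0.43, 0.42 and 0.58, were under 1.5-fold, as was that of *Vim* without P6 (0.55) or without the second P1 cKO library (0.57).

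*Kctd12*, *Aqp4*, *Scpep1*, *Sned1* and *Plpp3* were the 5 genes of highest CPM lower in cKO. *Aqp4*, the water channel of astrocyte endfeet, read 773 and 786 CPM in P1 WT and 564 and 562 CPM in P1 cKO, 344 and 342 against 248 and 299 CPM at P6, and 443 and 451 against 113 and 109 CPM at P8. It was lower in cKO at every time point, most at P8 (log2 -2.01), and without P8 the mean of -0.40 was under the fold threshold. *Sned1*, an extracellular matrix gene, read 52.1 and 49.4 against 41.3 and 36.6 CPM at P1 but 1060 and 1090 against 161 and 171 CPM at P8. *Kctd12*, an auxiliary subunit of GABA-B receptors, was 1.85-fold lower. *Plpp3*, which encodes a lipid phosphatase, and *Scpep1*, which encodes a carboxypeptidase, lay at the threshold, with mean log2 differences of -0.60 and -0.59. *Plpp3* differed by -0.04 at P1 and its mean was -0.58 without P6 and -0.35 without P8, while that of *Scpep1* was -0.41 without P6 and -0.57 to -0.58 without the second P6 WT, the first P8 WT or the first P8 cKO library.

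To describe functions, 48 lists of genes were counted, and 43 of them held at least 1 gene called with a constant sign. The count of each list is to be read against the 5.27% higher and 2.33% lower among all genes tested. Wnt proteins are secreted ligands that act through Frizzled receptors and, in the canonical branch, through beta-catenin and TCF factors. Of 14 Wnt ligand genes tested, 6 (42.9%) were higher and 1 lower in cKO with a constant sign, against 5.27% and 2.33% of all genes, and the median of their mean log2 differences was 0.73, against 0.00485 for all genes. The higher genes were *Wnt3*, *Wnt9a*, *Wnt7b*, *Wnt10b*, *Wnt5b* and *Wnt4*, with *Wnt16* lower, and without P8 4 of the 14 were higher. In all, 7 of the 14 were called higher and 4 lower on the mean, and 4 were lower without P1. A group was without counts in 3 of the 14, and the median stayed at 0.73 with such groups at the floor. *Wnt7b* (chromosome 15, 85535437 to 85582473, minus strand) read 6.99 and 6.12 CPM in P1 WT and 18.3 and 18.3 CPM in P1 cKO, 1.18 and 1.96 against 9.88 and 8.74 CPM at P6, and 0.74 and 0.499 against 3.3 and 2.59 CPM at P8. Its level was lower at later time points in both genotypes, and the cKO level was 4.29-fold higher on the mean (adjusted p = 6.09e-06). *Wnt9a* lay between 4.88 and 18.5 CPM in WT and 7.92 and 33.3 CPM in cKO and was 2.09-fold higher. *Wnt5b* and *Wnt4* were 2.09-fold and 1.64-fold higher, and *Wnt5b* was not called without P8 (log2 0.79, adjusted p = 0.0638). Of 30 receptors and antagonists of Wnt, 1 (3.33%) was higher and 3 (10%) were lower, with 13 lower without P1 and none without P8. Of 11 canonical target genes, 3 were higher, *Tcf7* among them (log2 0.56, 1.25 and 0.73 at P1, P6 and P8), and 1 was lower, with a median of 0.08, and 4 were lower without P1.

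FGF ligands signal through receptor tyrosine kinases, and Sprouty proteins are feedback inhibitors of that path. Of 25 genes of the list, 7 (28%) were higher and 1 lower, and without P1 11 were higher and 3 lower. The ligand gene *Fgf10* was 4.53-fold higher on the mean, but it lay under 0.2 CPM at P1, and it read 0.605 and 0.609 against 9.25 and 9.46 CPM at P8. Without P8 it was not called (log2 1.31, adjusted p = 0.216). The Sprouty gene *Spry4* read 11.1 and 12.6 against 15.9 and 17.8 CPM at P1, 33.2 and 33.8 against 83 and 73 CPM at P6 and 7.2 and 7.63 against 12.8 and 16 CPM at P8. *Fgf11*, an intracellular FGF homologue, was 2.37-fold lower. Of 38 neuropeptide and trophic factor genes, 10 (26.3%) were higher and 2 lower, with 5 lower without P1. The higher genes included *Gdnf*, a survival factor for dopaminergic neurons, *Lif*, a cytokine that promotes astrocyte differentiation, and the EGF receptor ligand gene *Areg*. *Lif* read 22.8 and 19.9 against 52.6 and 53.1 CPM at P1, 64.7 and 61.9 against 246 and 174 CPM at P6 and 10.6 and 9.32 against 21 and 21.2 CPM at P8. *Gdnf* was 2.67-fold higher and *Areg* 4.65-fold, the latter not called without P6 (log2 2.68, adjusted p = 0.0651). In WT *Areg* read only 0 and 0.172 CPM at P1 and 0.505 and 0.0554 CPM at P8. Its log2 differences of 3, 1.3 and 2.36 at P1, P6 and P8 passed at no single time point (edgeR, adjusted p = 0.113, 0.245 and 0.0659).

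Hedgehog ligands bind PTCH1 and release SMO, and *Gli1* is both an effector and a target of the pathway. Of 16 genes, 3 (18.8%) were lower and 1 higher with a constant sign, and 7 were lower without P1 and 5 without the first P1 cKO library. *Gli1* (chromosome 10, 127329882 to 127341974, minus strand) read 5.48 and 4.63 CPM in P1 WT and 3.23 and 4.04 CPM in P1 cKO, 19.8 and 20.3 against 0.457 and 0.187 CPM at P6, and 30.4 and 34.6 against 5.59 and 5.34 CPM at P8. The P1 groups were close and the later ones far apart (log2 -0.48, -5.95 and -2.57, interaction adjusted p = 1.64e-05). *Gas1*, a Hedgehog co-receptor gene, was 2-fold lower and the receptor gene *Ptch1* 1.51-fold. *Ptch1* fell under the fold threshold without P8 (log2 -0.31), without the second P1 WT library (-0.58) or without the first P6 cKO library (-0.56). The ligand gene *Dhh* was 5.65-fold higher, with 0.687 and 0.528 against 2.07 and 1.28 CPM at P1, 0.489 and 1.49 against 14.9 and 13.9 CPM at P6 and 0.774 and 0.956 against 3.9 and 3.9 CPM at P8.

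**Figure D4:**
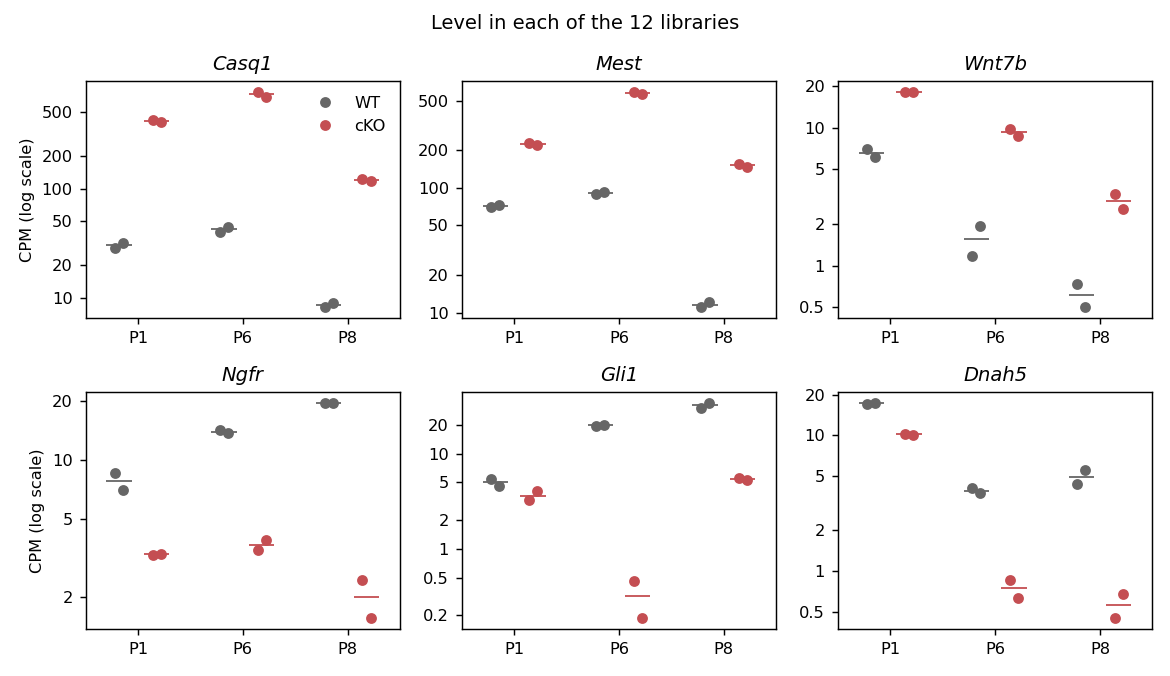
Level of 6 genes (CPM, log scale) in each of the 12 libraries at P1, P6 and P8, with WT in grey, cKO in red and a bar at the mean of the 2 libraries of a group. *Casq1*, *Mest* and *Wnt7b* are higher in cKO at every time point, *Ngfr* is lower at every time point, and *Gli1* and *Dnah5* are closer at P1 than at P6 and P8.

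Homeobox, Pax and T-box factors set regional identity in the embryo. Of 92 such genes, 25 (27.2%) were higher and 2 lower with a constant sign, and the median of the mean log2 differences was 0.55. A further 14 were called lower without a constant sign, and without P1 21 were lower. A group was without counts in 4 of the 92, and the median stayed at 0.55 with such groups at the floor. *Pax8*, a factor of thyroid, kidney and midbrain-hindbrain boundary, read 0.654 and 0.737 CPM in P1 WT and 2.5 and 2.16 CPM in P1 cKO, 0 and 0.292 against 3.93 and 3.95 CPM at P6 and 0.185 and 0.291 against 8.13 and 9.21 CPM at P8. *Pax2*, of the same boundary, lay between 0.0416 and 3.2 CPM in WT and 1.31 and 12 CPM in cKO and was 8.28-fold higher. *Tbx20*, a cardiac T-box gene, was 8.42-fold higher on the mean with little difference at P1 (log2 0.45). None of the 3 genes passed 3.2 CPM in a WT library. Of 15 Sox genes, 4 (26.7%) were higher and none lower with a constant sign, against 5.27% and 2.33% of all genes. Without P1 7 Sox genes were higher, and without P6 or P8 2 were. Of 19 gliogenic and proneural factors 2 (10.5%) were higher, 5 without P1 and none without P6.

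The list of astrocyte identity and maturation genes divided evenly, with 7 of 46 (15.2%) higher and 7 lower. The higher members included *Nes* and *Vim*, and the lower members *Aqp4*, *Ndrg2* and *Scg3*. *Ndrg2*, a gene of mature astrocytes, read 39 and 41.4 against 29 and 28.4 CPM at P1, 23.7 and 25.8 against 8.01 and 9.68 CPM at P6 and 33.7 and 35.9 against 8.78 and 10.1 CPM at P8. *Scg3*, which encodes a granin of secretory granules, was 2.5-fold lower. *Gfap*, the intermediate filament gene used to define astrocytes, did not keep its sign, with log2 differences of 0.52, 0.10 and -1.07, and its mean of -0.15 was under the fold threshold. Without P8, 2 genes of the list were lower in place of 7, and without P1 12 were. The 9 neural stem and progenitor markers had 4 genes higher and 1 lower with a constant sign, but without P8 1 marker was higher in place of 4. On the mean, 2 of the 9 were called lower, *Egfr* among them, with log2 differences of 0.34, -1.85 and -3.07 at P1, P6 and P8. The summed level of the 9 was higher in cKO at each time point, and *Vim* and *Nes* had the highest mean levels, 2420 and 902 CPM. Of 35 reactive astrocyte genes, 7 were higher and 2 lower with a constant sign, 5 were called lower on the mean, and 8 were lower without P1.

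Cytokines and chemokines are secreted signals of immune cells and reactive glia. Of 47 genes, *Lif* among them, 13 (27.7%) were higher and 2 lower with a constant sign, with 5 lower without P1. A group was without counts in 9 of the 47, and the list median of 0.52 was 0.58 with such groups at the floor. *Il6* read 3.74 and 3.34 against 7.46 and 9.18 CPM at P1, 1.15 and 0.891 against 4.95 and 4.95 CPM at P6 and 2.37 and 2.26 against 9.22 and 10.9 CPM at P8, with no overlap between genotypes. *Ccl6*, a chemokine of myeloid cells, read 80.7 and 84.1 against 260 and 262 CPM at P1, 10.7 and 10.7 against 20.8 and 20.6 CPM at P6 and 31.1 and 34.8 against 231 and 232 CPM at P8. The summed microglial markers were lower in cKO at P1 and higher at P6 and P8. Of the 15 markers *Tmem119* alone kept its sign and was called, 1.94-fold lower in cKO, while *C1qa* had log2 differences of -0.19, 0.27 and 1.26. The list of interferon-stimulated genes had 1 of 51 (1.96%) higher and 2 (3.92%) lower, against 5.27% and 2.33% of all genes. Without P6, 11 were higher and none lower, and the list medians were 0.04, -0.54 and 0.75 at P1, P6 and P8. *Mmp12*, a macrophage elastase, was 6.13-fold higher, with 149 and 174 CPM in P8 cKO against 4.2 and 6.57 CPM in P8 WT.

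Collagens, proteoglycans and the proteases that cut them make and remodel the extracellular matrix. *Col9a3*, a cartilage collagen gene, lay between 2.94 and 3.94 CPM in WT and 9.15 and 16.3 CPM in cKO. Of 35 collagen genes, 7 (20%) were higher and 1 (2.86%) lower with a constant sign, 8 more were called lower on the mean without a constant sign, 18 were lower without P1 and 4 were higher without P6. Of 55 proteoglycan and elastic matrix genes, 7 (12.7%) were higher and 6 (10.9%) lower with a constant sign, but 16 were called lower on the mean, 24 were lower without P1 and 3 without P8. Of 48 matrix protease genes, 5 (10.4%) were higher and 6 (12.5%) lower with a constant sign, but 12 were called lower on the mean and 19 were lower without P1.

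Clustered protocadherins, whose stochastic use gives single cells their surface identity, were lower or not called. Of 41 genes, none was higher and 8 (19.5%) were lower with a constant sign, 4 without P8, 5 without the first P1 cKO library and 14 without P1, and the median was -0.58, or -0.55 with groups without counts at the floor. *Pcdhga3* and *Pcdhga6* were 2.38-fold and 1.97-fold lower, and *Pcdhga3* was not called without P8 (log2 -1.02, adjusted p = 0.0643). Members of the gamma cluster share their last exons, and the sources used here do not give how the counting divided those reads.

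Motile cilia, carried by ependymal cells in the brain, are driven by axonemal dyneins, and their genes had the highest share of lower genes among the 48 lists. Of 37 genes, 14 (37.8%) were lower and 1 higher with a constant sign, and 7 were lower without P8. *Dnah5*, a heavy chain of outer dynein arms, read 17.2 and 17.5 CPM in P1 WT and 10.3 and 10.1 CPM in P1 cKO, 4.07 and 3.75 against 0.853 and 0.638 CPM at P6, and 4.39 and 5.57 against 0.45 and 0.678 CPM at P8. *Dnah6*, of inner arms, was 3.96-fold lower. The summed ependymal and choroid plexus markers were 255 to 268 CPM in cKO and 242 to 259 CPM in WT at P1, 153 to 154 against 128 to 145 CPM at P6 and 76.3 to 78.4 against 214 to 218 CPM at P8, so that the sum was lower in cKO at P8 alone. *Aqp1* made up most of the P8 WT sum, with 182 and 177 against 18.9 and 17.7 CPM at P8. *Foxj1* was higher in cKO there, with 24.1 and 25.5 against 42.4 and 39.2 CPM. Of the 8 markers, 2 were called higher with a constant sign and 1 lower without one, and the list median at P8 was -0.43.

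Synaptic genes were split, with 7 of 36 (19.4%) higher and 7 lower, and without P8 4 lower. *Bsn*, the presynaptic scaffold bassoon, read 11.3 and 8.91 CPM in P6 WT and 1.22 and 1.12 CPM in P6 cKO and was 3.79-fold lower on the mean. *Camk2b*, a kinase of postsynaptic density, and *Syt4*, a vesicle synaptotagmin, were 3.37-fold and 3.2-fold higher, and *Syt4* stayed under 4 CPM in every library. Solute carriers, by far the largest list, had 10 of 238 (4.2%) higher and 11 (4.62%) lower with a constant sign, against 5.27% and 2.33% of all genes. Without P1, 26 were higher and 29 lower. Among them *Slc12a8* was 7.73-fold higher, with 0.887 to 3.51 CPM in WT and 6.29 to 26.1 CPM in cKO. Glycolysis had 2 of 29 (6.9%, near the 5.27% of all genes) higher and 3 (10.3%, against 2.33%) lower. Without P1 5 were higher, and without P8 1 was lower. *Ldhb*, which encodes a subunit of lactate dehydrogenase, read 171 and 189 against 84.6 and 92.5 CPM at P1, 187 and 212 against 121 and 110 CPM at P6 and 101 and 109 against 55.3 and 54.6 CPM at P8.

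Polycomb subunits build the complexes that place and read repressive histone marks. Of 39 such genes, 2 (5.13%, near the 5.27% of all genes) were higher and none lower with a constant sign, *Scml4* (2.33-fold) and *Pcgf5* (1.87-fold), and the median was 0.01. Clustered histone genes, whose transcripts mostly lack poly(A) tails and whose near-identical copies can share reads, had 12 of 52 (23.1%) higher and none lower. That count was 1 without P8 and 2 with a single genotype term, and *Hist1h1d* had log2 differences of 0.63, 0.62 and 1.80. The paternally expressed gene *Mest* was 6.38-fold higher, with 70.6 and 72.6 against 231 and 221 CPM at P1, 89.6 and 93.2 against 590 and 564 CPM at P6 and 11 and 12.2 against 156 and 148 CPM at P8. Of 39 imprinted genes, *Mest* was 1 of 2 (5.13%, near the 5.27% of all genes) higher with a constant sign, and 12 of the 13 called lower on the mean did not keep their sign. Without P1, 14 imprinted genes were lower.

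The lists of cytosolic ribosomal proteins (83 genes), respiratory chain (91), DNA replication and S phase (51), mitosis (44) and antigen presentation (21) held no gene called with a constant sign. Of all genes tested, 5.27% were higher and 2.33% lower, so that none among the 21 antigen presentation genes is near the share of all genes. Differences under the fold threshold were lower in cKO at all 3 time points in 57 ribosomal protein genes and 35 mitosis genes, with list medians of -0.19 and -0.31 on the log2 scale, whereas 1 ribosomal protein gene and no mitosis gene was higher at all 3. Whatever the test, 15% of all genes were lower and 17.1% higher at all 3 time points.

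**Figure D5:**
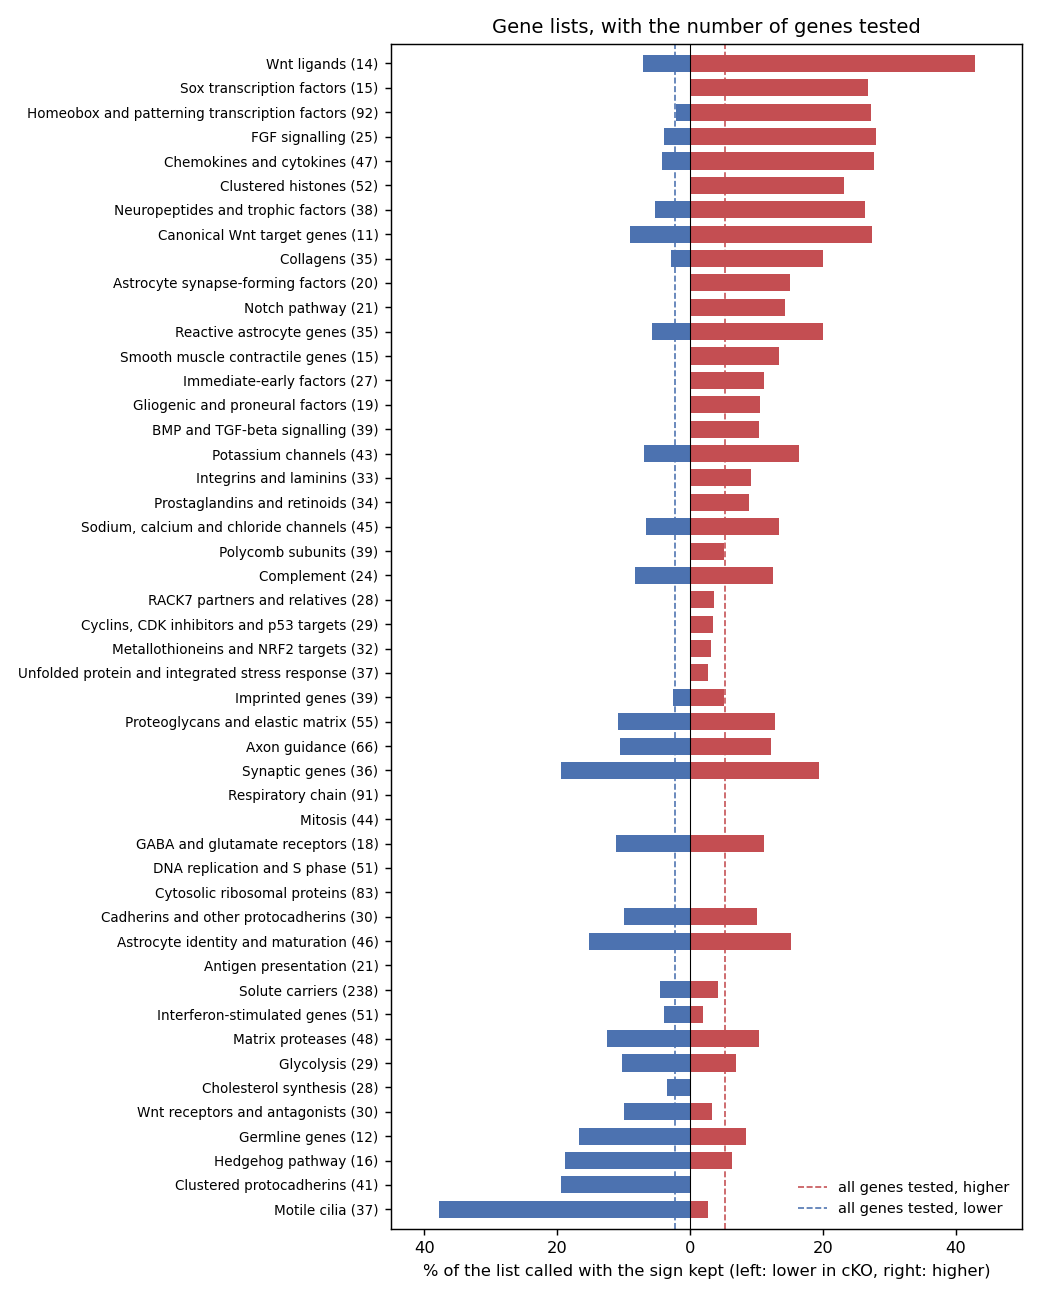
Share of each of the 48 gene lists (in %) called with a constant sign, to the right and in red for higher in cKO and to the left and in blue for lower, with dashed lines at 5.27% and 2.33% of all genes tested and the number of genes tested in brackets. Wnt ligands (42.9%) lead to the right and motile cilia (37.8%) to the left, and 5 lists are empty.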

How the data were processed

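RNA-seq of cultured mouse astrocytes was taken as the deposited table of raw read counts per gene, in which the authors' reads had been mapped with HISAT2 to GRCm38 (mm10). The sources used here give no counting program, annotation or strand setting. Column names of the table matched the labels of all 12 libraries. Gene positions and exon overlaps were taken from GENCODE vM21, which held 18873 of 18903 identifiers, and 26 names had more than 1 identifier. Biotypes were those of the deposited table.

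Counts were analysed with edgeR (version 4.0.16, R version 4.3.3). Genes were kept by filterByExpr (minimum count 10), libraries were scaled by TMM, with factors of 0.943 to 1.07, and a quasi-likelihood model was fitted with 1 mean for each of the 6 groups, which left 6 residual degrees of freedom. The genotype effect was the mean of the 3 within-time differences of cKO minus WT. Genes were called at a Benjamini-Hochberg adjusted p below 0.05 over all genes tested and a mean fold change of at least 1.5, and the fitted sign was then read at P1, P6 and P8. A joint F test of the 2 interaction contrasts asked whether the difference varied between time points. CPM values are TMM-scaled. Where a group had no counts, a fold is given as a bound, with that group at a floor of 3 counts in all, which covers counting error only.

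Genes were named by rule: the 10 in each direction with the largest smallest difference, the 5 in each direction of highest CPM, and up to 4 genes of each list with the largest mean difference, all with at least 1 CPM and no overlap of genotypes within a time point. For marker lists and lists without such a gene, the 3 of highest CPM were named. The text follows 74 of the genes named this way, and mentions other list members only to describe a sum or a count. The members, gene lists and tests were chosen with earlier results of these data known. No value of the authors' own comparisons was used. The model was run on simulated counts with independent libraries and the fitted spread, without the fold and sign rules. Such a run cannot test the unit of replication. Alternatives were another scaling, no filter, DESeq2 (version 1.42.0), a single genotype term, replicate blocks, other thresholds, and leaving out each time point and each library. Adding together the libraries of a group was chosen after seeing the data.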

Additional observations from a re-analysis of the deposited data

Results flagged for a closer look

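Among the 74 genes that the text follows by the naming rule, the difference between cKO and WT varied between time points in 45 by the interaction test of edgeR, with the adjusted p-values given here. It was seen in 30.8% of all genes tested. The sign itself turned in *Col3a1* (adjusted p = 1.93e-10), *Col1a1* (6.73e-09), *Cdh5* (1.02e-07), *C1qa* (1.95e-06) and *Gfap* (1.99e-06), of which *Col3a1*, *Col1a1* and *Cdh5* were higher in cKO at P1 and lower later, *Gfap* was lower at P8 alone and *C1qa* was lower at P1 alone.

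In genes higher in cKO throughout, the difference varied with the smallest value at P1 for the intermediate filament genes *Nes* (3.41e-07) and *Vim* (5.94e-05), for *Spp1* (9.7e-08), *Ccnd1* (4.06e-08), *Tnc* (1.59e-06), *Mest* (5.74e-07), *Mmp12* (3.42e-05), *Gdnf* (0.000336), *Pax2* (0.000461), *Pax8* (0.0384), *Tbx20* (0.00188), *Adgrl4* (0.0161), *A730020M07Rik* (0.012), *Il6* (0.0197), *Dhh* (0.0357), *Spry4* (0.0312), *Tcf7* (0.0148), *Slc12a8* (0.0499) and *Zmynd8* (0.00326). It varied with the smallest value at P6 for *Ccl6* (8.75e-07), *Fgf10* (0.0311), *Hist1h1d* (0.0312), *Cxcl15* (0.00788) and *Gm830* (0.0267), the last 2 of which had a group without counts at another time point.

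In genes lower in cKO throughout, the difference was smallest at P1 for *Ngfr* (0.00105), *Gli1* (1.64e-05), *Ptch1* (0.000125), *Gas1* (7.1e-05), *Sned1* (6.97e-07), *Plpp3* (2.69e-06), *Kctd12* (0.00391), *Scpep1* (4.16e-05), *Ndrg2* (0.000336), *Scg3* (0.000752), *Dnah5* (0.000574), *Dnah6* (0.000982) and *Bsn* (0.000802). It was smallest at P6 for *Aqp4* (3.6e-06), *Tmem119* (0.0022) and *Pcdhga6* (0.0233).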

How the results depend on the processing

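The counts of genes of constant sign, 945 higher and 418 lower, were 943 and 423 with DESeq2 size factors, 944 and 416 without a filter, and 1013 and 492 with DESeq2. Leaving out 1 library at a time gave 1062 to 1145 genes called higher, 708 to 825 called lower, 866 to 923 higher and 372 to 442 lower with a constant sign, and 4421 to 5368 genes whose difference varied between time points. A single genotype term called 752 higher and 356 lower genes. A 2-fold threshold left 671 higher and 403 lower genes, 598 and 200 of them with a constant sign. Without P1, 1326 genes were called lower and 1239 kept that sign at both other time points, and without P8 449 were called lower. With the libraries of a group added together, edgeR called 0 higher and 0 lower genes and hence 0 of constant sign. At an unadjusted p it called 768 and 329, and DESeq2 called 485 higher and 157 lower, 485 and 149 of them with a constant sign. *Col1a1* turned to -1.06 without P1 and *Col3a1* to 0.69 without P6.

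The replicate numbers did not pair the libraries: the correlations of replicate 1 minus replicate 2 between WT and cKO were -0.0138 at P1, -0.00127 at P6 and -0.0496 at P8 over 15146 genes. With the replicate number as a block, 1131 genes were called higher and 757 lower, 917 and 397 with a constant sign, and the difference varied between time points in 5143. Blocks within each time point gave 1051 and 729, 861 and 378, and 4097.

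Depth limits genes under about 1 CPM, where groups without counts give bounds in place of folds, and 2 libraries in a group limit the estimate of the spread, which all groups share. Sex and time point cannot be told apart, and neither can cell composition and RNA per cell.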
